A study of Mus musculus with 8 samples.

Results

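Foxj1 and 6 genes of the Rfx family (Rfx1, Rfx2, Rfx3, Rfx4, Rfx5 and Rfx7) encode transcription factors, most of them known from the building of cilia. They were chosen by gene name, and all 7 were found among the 48823 gene identifiers counted in this RNA-seq study of the mouse utricle, a gravity-sensing organ of the inner ear. Utricles were taken at embryonic day E15.5 from 4 groups of embryos carrying Rest(+/deltaExon4), a heterozygous deletion of exon 4 of the repressor gene Rest, and from 4 groups of wild-type (WT) embryos. The titles call the mutant libraries KO, while their genotype label gives a heterozygote. The labels name no transgene or Cre driver, and the strain is C57BL/6 except that WT replicate 4 is labelled C57BL/7, with an age of E15.6. Each library pooled RNA from 7 to 9 mice, so the n of 4 in each genotype counts pools. The labels do not say whether pools came from separate litters, and p-values measure the spread between these pools. A bulk sample of this organ holds hair cells, supporting cells, nerve, mesenchyme and blood, and fewer cells of a type cannot be told apart from less RNA per cell.

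A cilium is built on microtubules. RFX factors bind the X-box, a DNA element in the promoters of genes that nearly every cilium needs, such as those of intraflagellar transport. FOXJ1 drives the genes of motile cilia, among them dynein arms and radial spokes, and RFX2 and RFX3 act together with it in many vertebrate tissues. A hair cell carries a single true cilium, the kinocilium, beside its actin-filled stereocilia. RFX5 stands apart in the family as the DNA-binding subunit of a complex that turns on MHC class II genes. REST silences neuronal genes outside neurons, and the study asks about the regulation of REST by alternative splicing.

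The promoters of Rfx1, Rfx2 and Rfx3 are shown because they share a short stretch of sequence with each other and with the X-box. Promoter sequence (RefSeq, GRCm38.p6, 250 bases before to 50 after each start) was found for 6 of the 7 genes, all but Foxj1. The 6 letters GTTGCC, the core of an X-box arm, were searched on both strands. They occurred in the promoters of Rfx1, Rfx2 and Rfx3 but not in those of Rfx4, Rfx5 and Rfx7, and in 3821 of 27025 genes with a promoter (14.1%). In Rfx1, Rfx2 and Rfx3 the letters stood at the end of a longer run, GNAAC and GTTGCC with 1 base between them. GNAAC resembles the end of the other arm of the X-box, GGCAAC. In the X-box that arm follows GTTGCC, while in these runs it comes before it, so the arms stand in the opposite order. In the 30-base windows, read 5′ to 3′ on the strand of the gene, capitals mark this longer run.
Rfx1 (chr8:84066822-84066851, plus strand): gggtgggtaGCAACAGTTGCCccggtgagg
Rfx2 (chr17:56831110-56831139, minus strand): tgcagcttgGTAACCGTTGCCgggcgcaac
Rfx3 (chr19:28011121-28011150, minus strand): tgagttataGCAACCGTTGCCttgtgaatc

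The longer run was chosen after these windows were seen, and it overlaps GTTGCC by construction. It was found in 25 of 27025 genes (0.0925%), 3 of them Rfx1, Rfx2 and Rfx3. A full X-box of GTTGCC, AT and GGCAAC in 1 run was in the promoters of 6 genes and of no Rfx gene. A match is a description of letters, not a measured binding site.

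The same 6 letters were counted in the promoters of cilium genes. Windows of 3 genes that hold the letters and fell in heterozygotes are shown to compare with the Rfx promoters. The letters were in 27 of 57 motile axoneme genes with a promoter (47.4%), against 14.1% of all genes. Among genes of intraflagellar transport, the BBSome and the transition zone they were in 27 of 65 (41.5%). Capitals mark GTTGCC, or GGCAAC where the match lies on the opposite strand.
Tekt2 (chr4:126325767-126325796, minus strand): cgcagctgcgcgGTTGCCtggctaagctga
Cfap161 (chr7:83794861-83794890, minus strand): cctggtcgtcatGGCAACgaagcacgctaa
Tekt4 (chr17:25471586-25471615, plus strand): caatgttccttaGGCAACcaggaaccttgc

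The libraries held 22.4 to 24.6 M read pairs on genes in heterozygotes and 20.4 to 23.8 M in WT. Read pairs outside annotated genes made up 11.9% to 18.3% in heterozygotes and 18.4% to 22.2% in WT, with no overlap. Rest itself was at 127 ± 3.20 CPM (counts scaled to a common library total) in heterozygotes and 116 ± 7.35 CPM in WT (SD, n = 4 each). Its log2 fold change, heterozygote over WT, was 0.12 ± 0.07 (SE, adjusted p = 0.456). All heterozygous libraries (124.6 to 131.7 CPM) lay above all WT libraries (106.2 to 122.0 CPM), as in 2.98% of all genes. Counts over the whole gene do not check the deletion of 1 exon. By the quasi-likelihood test of edgeR, 173 of 16990 genes were lower in heterozygotes (1.02%) and 25 higher (0.147%) at an adjusted p below 0.05.

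The 7 regulators differed widely in level. Per kilobase of merged exons, Rfx3 was the highest, at 5.25 ± 0.922 CPM per kb in heterozygotes and 5.49 ± 0.812 CPM per kb in WT. Foxj1 came next, at 4.29 ± 1.23 CPM per kb in heterozygotes and 3.80 ± 0.364 CPM per kb in WT. Both lay near the middle of the genes of this organ: Rfx3 was above 59.5% of the 16955 tested genes with a known length, and Foxj1 above 53.3%. The order rests on merged exon length, 2.62 kb for Foxj1 and 15.3 kb for Rfx7. In CPM the mean of Rfx7 was above that of Foxj1, at 13.7 against 11.3 CPM in heterozygotes and 22.5 against 9.97 CPM in WT. Whether reads scale with that length here was not tested.

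Rfx2, Rfx1 and Rfx7 followed at close to 1 CPM per kb. In heterozygotes they stood at 1.29 ± 0.157 for Rfx2, 1.26 ± 0.133 for Rfx1 and 0.894 ± 0.254 CPM per kb for Rfx7. In WT they stood at 1.25 ± 0.215 for Rfx2, 0.986 ± 0.0710 for Rfx1 and 1.47 ± 0.138 CPM per kb for Rfx7. Rfx5 was lower, at 0.493 ± 0.0932 CPM per kb in heterozygotes and 0.469 ± 0.0923 CPM per kb in WT. Rfx4 was close to absent, at 0.0548 ± 0.0188 CPM per kb in heterozygotes and 0.0566 ± 0.0383 CPM per kb in WT.

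Neighbours in this order were not all separated by the spread of the libraries. In heterozygotes Rfx3 and Foxj1 overlapped, as did Rfx2 with Rfx1 and Rfx1 with Rfx7. In WT Rfx3 lay apart from Foxj1 and Foxj1 apart from Rfx7, while Rfx7 overlapped Rfx2 and Rfx2 overlapped Rfx1. Rfx5 and Rfx4 lay apart from each other and from the genes above them in both genotypes. Rfx7 exceeded Rfx1 per kilobase in 1 of 4 heterozygous and in 4 of 4 WT libraries.

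**Figure D1:**
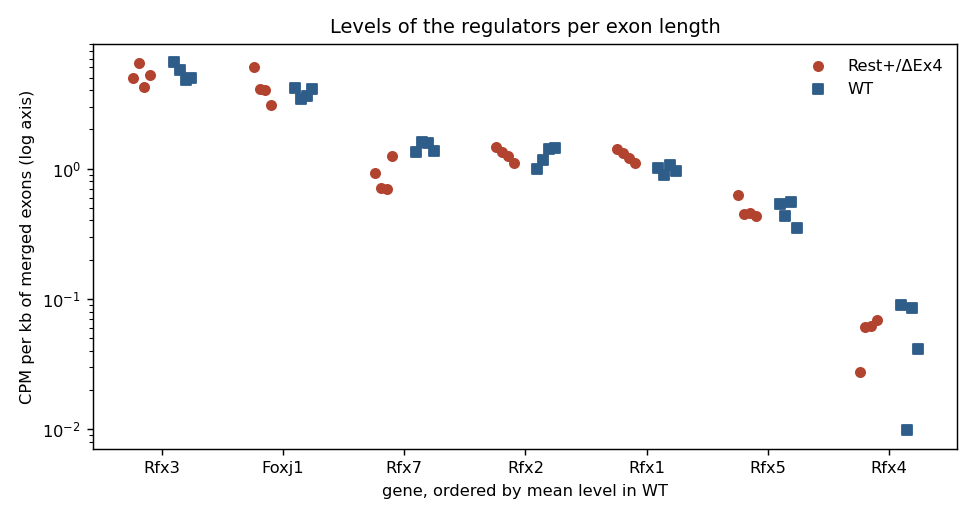
Level of each regulator in CPM per kb of merged exons (log axis), with genes ordered by their mean in WT; points are libraries, heterozygotes (circles, Rest+/ΔEx4) left of WT (squares). Rfx3 and Foxj1 stand highest, Rfx4 lies far below the rest, and Rfx7 is the gene whose place in the order differs most, at 0.894 CPM per kb in heterozygotes and 1.47 CPM per kb in WT.

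Of the 7 genes, 6 had enough reads for edgeR's test between genotypes, and Rfx4 did not. None of the 6 passed edgeR's test at an adjusted p below 0.05 (Benjamini-Hochberg over all genes), where 1.17% of all genes did. At an unadjusted p below 0.05 there were 2 of 6, Rfx1 and Rfx7, against 13.4% of all genes. The same pair had libraries that did not overlap between genotypes, 2 of 6 against 7.88% of all genes. Rfx7 was the lower of the pair, a direction that 4.89% of all genes shared without overlap and 7.92% at an unadjusted p below 0.05, and Rfx1 the higher, shared without overlap by 2.98%. By DESeq2 1 of the 7 passed, Rfx7, where 2.16% of the genes it tested were lower, and by limma-voom 0 of 6.

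Foxj1 (chr11:116330704-116335399, minus strand; gene positions are on GRCm38) encodes the forkhead factor of motile ciliogenesis. It had 15.7, 10.7, 10.5 and 8.06 CPM in heterozygous libraries 1 to 4, against 10.8, 8.91, 9.42 and 10.7 CPM in WT libraries 1 to 4. Heterozygote 1 was the highest of the 8 and heterozygote 4 the lowest, so the heterozygous libraries enclosed all WT libraries. The means were 11.3 ± 3.22 CPM in heterozygotes and 9.97 ± 0.954 CPM in WT (SD, n = 4 each). Heterozygotes over WT, the log2 fold change was 0.17 ± 0.19 (SE, adjusted p = 0.728), with a 95% interval of -0.20 to 0.55. Without heterozygote 1 it was -0.03.

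Rfx3 (chr19:27761721-28011166, minus strand), whose loss in mice impairs nodal and ependymal cilia, was the most abundant regulator. It had 55.1, 71.4, 46.9 and 58.3 CPM in heterozygous libraries 1 to 4, against 72.3, 62.9, 52.6 and 54.7 CPM in WT libraries 1 to 4. The groups overlapped, and the spread within each genotype was larger than the difference between their means, 57.9 ± 10.2 CPM in heterozygotes and 60.6 ± 8.96 CPM in WT. The log2 fold change was -0.07 ± 0.14 (adjusted p = 0.874), with a 95% interval of -0.33 to 0.20.

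Rfx2 (chr17:56775897-56831013, minus strand), a regulator of motile cilia and of spermatid tails, had 10.8, 9.75, 9.14 and 8.02 CPM in heterozygous libraries 1 to 4, against 7.27, 8.45, 10.3 and 10.6 CPM in WT libraries 1 to 4. The groups covered the same range. Its log2 fold change was 0.04 ± 0.16 (adjusted p = 0.938), with a 95% interval of -0.27 to 0.35.

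Rfx1 (chr8:84066834-84096992, plus strand) encodes a broadly expressed X-box factor, and outer hair cells of the mouse cochlea are lost when Rfx1 and Rfx3 are both deleted. It had 9.13, 8.41, 7.72 and 7.16 CPM in heterozygous libraries 1 to 4, against 6.55, 5.77, 6.83 and 6.21 CPM in WT libraries 1 to 4. All 4 heterozygous libraries lay above all 4 WT libraries, with means of 8.11 ± 0.854 CPM and 6.34 ± 0.457 CPM (SD, n = 4 each). The log2 fold change was 0.35 ± 0.14, with an unadjusted p of 0.0293 and an adjusted p of 0.323, so the difference did not pass. In the fits that left out 1 library each it stayed between 0.29 and 0.41.

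An antisense gene, C330011M18Rik, shares 42 exonic bases with Rfx1, and the libraries keep no strand. It was at 3.42 ± 0.184 CPM in heterozygotes and 4.33 ± 0.291 CPM in WT, below WT where Rfx1 was above it. Its groups did not overlap (3.21 to 3.64 CPM against 4.11 to 4.76 CPM), as in 4.89% of all genes in that direction. Its own difference, -0.34 ± 0.16 on the log2 scale, did not pass (adjusted p = 0.398).

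Rfx7 (chr9:72532240-72622937, plus strand) showed the largest difference of the 6. RFX7 acts downstream of p53 in human cells, and in the frog it is needed for cilia of the neural tube. It had 14.1, 10.8, 10.7 and 19.0 CPM in heterozygous libraries 1 to 4, against 20.5, 24.5, 24.2 and 20.9 CPM in WT libraries 1 to 4. All 4 heterozygous libraries lay below all WT libraries, heterozygote 4 by the smallest margin. The means were 13.7 ± 3.89 CPM in heterozygotes and 22.5 ± 2.11 CPM in WT, a ratio of 0.608.

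The log2 fold change of Rfx7 was -0.72 ± 0.18, with an unadjusted p of 0.00208 and an adjusted p of 0.103 by edgeR, which did not pass. DESeq2 gave -0.70 with an adjusted p of 0.0109, which passed, as did edgeR without heterozygote 4, at -0.92 and an adjusted p of 0.0161. Without any other library the adjusted p by edgeR did not fall below 0.05, and it reached 0.256. In the authors' normalized counts, which hold 4 heterozygous and 3 WT libraries, the log2 ratio was -0.74 (exact two-sided permutation p = 0.0571, with 0.0286 the smallest possible). Rfx1 gave the same p there, at a log2 ratio of 0.36.

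**Figure D2:**
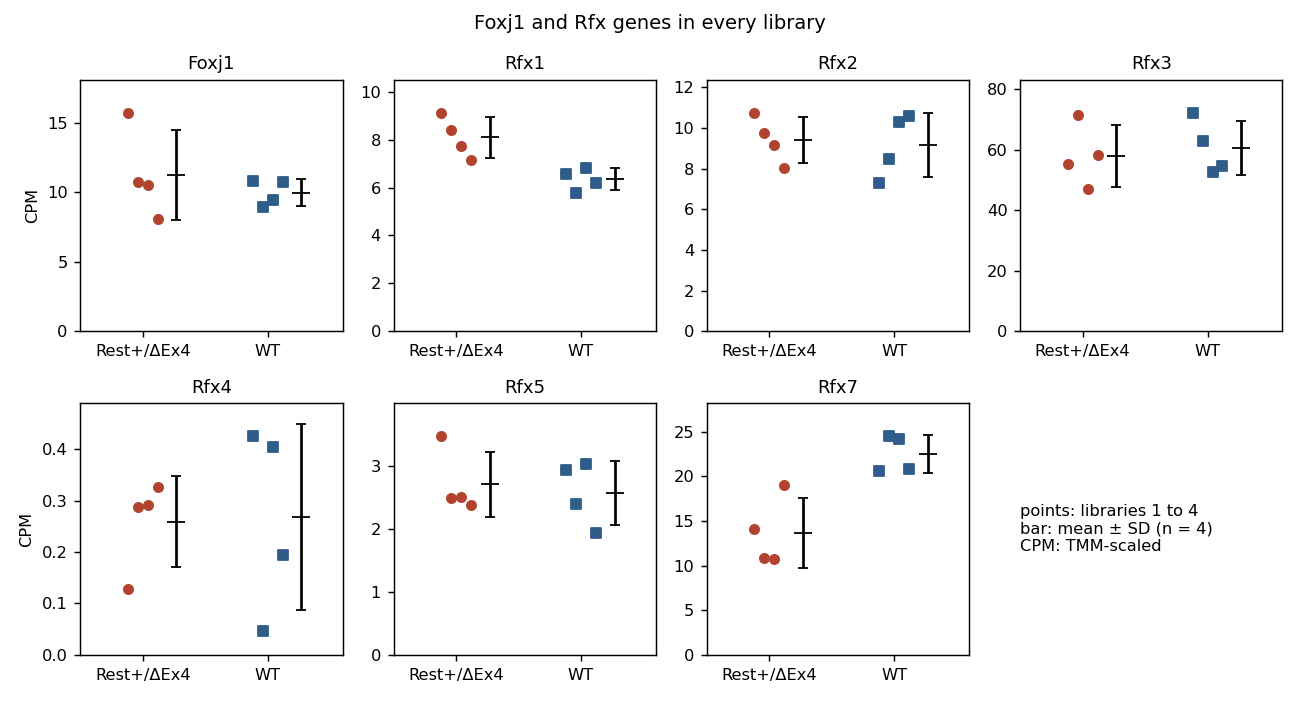
CPM of each of the 7 genes in every library (points), heterozygotes (Rest+/ΔEx4 on the axes) left of WT, with the mean and SD of 4 libraries (bars); each panel starts at 0 and has its own scale. Rfx7 lies lower in all 4 heterozygous libraries (10.7 to 19.0 CPM against 20.5 to 24.5 CPM), Rfx1 higher in all 4, and the other 5 genes overlap.

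The introns of Rfx7 hold annotated transcripts on the same strand that share no exonic base with it. The processed pseudogene Gm19427 had 30, 39, 11 and 14 reads in heterozygous libraries 1 to 4, against 95, 51, 79 and 59 reads in WT libraries 1 to 4. Gm37105, a transcript still to be experimentally verified, had 7, 2, 8 and 2 reads in heterozygous libraries, against 28, 13, 17 and 10 reads in WT libraries. Both were lower in all 4 heterozygous than in all WT libraries, as Rfx7 was and as 4.89% of all genes were. They were looked at because they lie inside Rfx7, and their read numbers are small. Antisense to Rfx7, Gm27241 shares 417 exonic bases with it but held only 1 read over the heterozygous and 4 over the WT libraries.

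Gm19427 averaged 1.05 ± 0.657 CPM in heterozygotes and 3.11 ± 0.708 CPM in WT, a log2 fold change of -1.58 ± 0.41 (adjusted p = 0.121). Gm37105 averaged 0.203 ± 0.133 CPM in heterozygotes and 0.741 ± 0.311 CPM in WT, a log2 fold change of -1.84 ± 0.52 (adjusted p = 0.159). Neither passed. The share of read pairs outside genes, given above, was also lower in every heterozygous than in any WT library, and its part in these values was not tested.

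**Figure D3:**
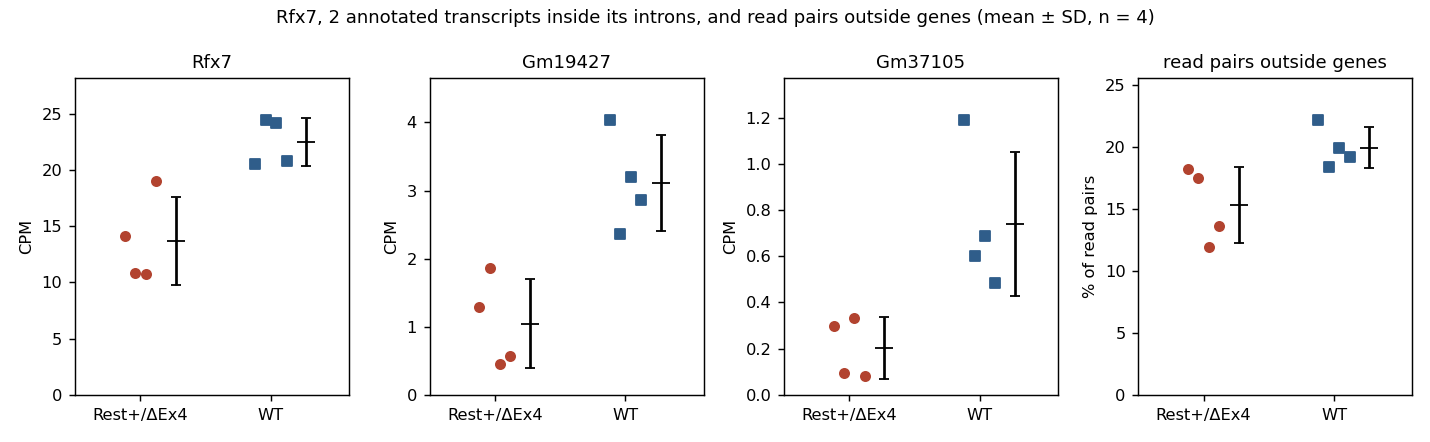
CPM of Rfx7 and of Gm19427 and Gm37105 inside its introns, and the percentage of read pairs outside genes, in every library (points), heterozygotes left of WT, with mean and SD of 4 libraries. All 4 measures are lower in heterozygotes with no overlap, the last at 11.9% to 18.3% against 18.4% to 22.2%. Of all genes tested, 4.89% were lower without overlap.

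Rfx5 (chr3:94954075-94961561, plus strand), of the MHC class II complex, had 3.47, 2.49, 2.505 and 2.37 CPM in heterozygous libraries 1 to 4, against 2.93, 2.40, 3.03 and 1.94 CPM in WT libraries 1 to 4. The groups overlapped, with heterozygote 1 the highest of the 8. Its log2 fold change was 0.07 ± 0.23 (adjusted p = 0.927), with a 95% interval of -0.39 to 0.52. The antisense gene B230398E01Rik shares 1471 exonic bases with Rfx5 but held only 7 reads over the heterozygous and 2 over the WT libraries.

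Rfx4 (chr10:84756062-84906538, plus strand), a factor of the developing brain and its cilia in mice, had 3, 6, 7 and 8 reads in heterozygous libraries 1 to 4, against 10, 1, 10 and 4 reads in WT libraries 1 to 4. That is 0.129 to 0.327 CPM in heterozygotes and 0.0462 to 0.425 CPM in WT, with the heterozygous libraries inside the WT range. The read minimum of edgeR's filter left it out of that test, and DESeq2, which kept it, did not call it. In the authors' normalized counts its log2 ratio was -0.16 (exact two-sided permutation p = 0.8).

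The rest of the family and the partners of RFX5 were compared as a list of 5 genes. Rfxank and Rfxap, the other subunits of the RFX5 complex, had enough reads, and 0 of 2 passed by edgeR, DESeq2 or limma-voom (0 at an unadjusted p below 0.05 by edgeR). Rfxank was at 37.1 ± 3.60 CPM in heterozygotes and 38.1 ± 3.62 CPM in WT. Rfxap was at 17.1 ± 1.87 CPM in heterozygotes and 15.61 ± 1.83 CPM in WT. Rfx6, Rfx8 and Ciita, the class II coactivator, stayed below 1 CPM in each library and were not tested.

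Regulators that act upstream of or beside FOXJ1 in multiciliated cells were sparse or level. Of 16 listed genes, 9 were tested and 0 passed by edgeR, by DESeq2 or by limma-voom (0 at an unadjusted p below 0.05 by edgeR), with a median log2 fold change of 0.02. Gmnc, which starts multiciliation, had no read in any library, which allows at most 3 reads in each. Mcidas and Ccno, which follow it, averaged below 0.2 CPM in both genotypes. Gmnn, the geminin gene, was at 53.1 ± 5.33 CPM in heterozygotes and 49.6 ± 6.20 CPM in WT. E2f4, which multiciliated cells use for centriole genes, was at 45.0 ± 6.44 CPM in heterozygotes and 39.0 ± 9.83 CPM in WT.

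Among genes of the motile axoneme, the programme that FOXJ1 drives with RFX2 and RFX3, 11 fell in heterozygotes, while Foxj1, Rfx2 and Rfx3 did not pass. Of 69 listed genes, 64 were tested, 11 fell and 0 rose, so that 17.2% fell against 1.02% of all genes, and 53 did not pass. The count that fell was 5 without WT replicate 1, 6 without heterozygote 2, 3 or 4 or WT replicate 2 or 3, and 9 without heterozygote 1 or WT replicate 4. With DESeq2 it was 25, where 2.16% of all the genes it tested were lower. At an unadjusted p below 0.05 by edgeR there were 40 of the 64, against 13.4% of all genes. The median log2 fold change was -0.49, against -0.0027 over all genes, and 61 of the 64 values were negative. In 30 of the 64 all heterozygous libraries lay below all WT libraries, against 4.89% of all genes.

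Summed over the 69 genes, heterozygous libraries 1 to 4 had 890, 839, 837 and 821 CPM, against 1226, 1088, 1088 and 1156 CPM in WT libraries 1 to 4. The groups did not overlap, with means of 847 ± 29.8 CPM in heterozygotes and 1140 ± 66.1 CPM in WT. Foxj1 was highest in heterozygote 1, which also had the highest axoneme sum of its genotype, and that sum was still below the lowest WT sum.

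**Figure D4:**
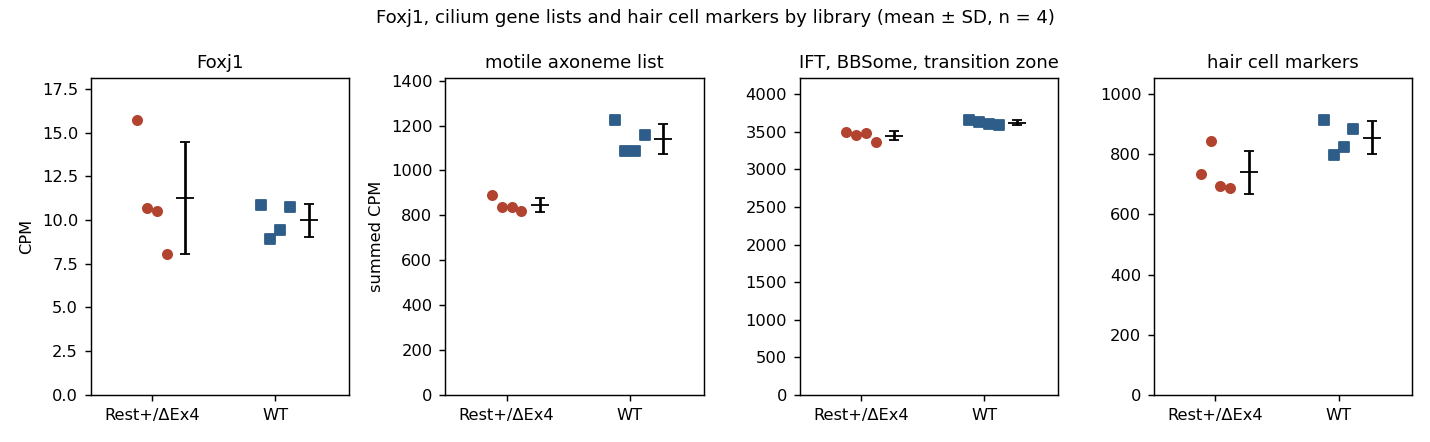
CPM of Foxj1 and summed CPM of the motile axoneme genes, the intraflagellar transport (IFT), BBSome and transition zone genes, and the hair cell markers in every library (points), heterozygotes left of WT, with mean and SD of 4 libraries. The axoneme sum runs from 821 to 890 CPM in heterozygotes and from 1088 to 1226 CPM in WT, while Foxj1 and the hair cell sum overlap between genotypes.

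Tekt2, a tektin of the microtubule doublet, was the most abundant of the axoneme genes with the smallest adjusted p. It had 51.8, 48.7, 50.8 and 48.3 CPM in heterozygous libraries 1 to 4, against 85.4, 66.9, 68.7 and 77.1 CPM in WT libraries 1 to 4. The log2 fold change was -0.58 ± 0.09 (adjusted p = 0.00884 by edgeR), and the groups lay well apart.

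Ak7, an adenylate kinase of cilia, had the largest difference of the 64. It had 0.900, 1.10, 1.67 and 1.06 CPM in heterozygous libraries 1 to 4, against 4.29, 3.51, 4.21 and 3.98 CPM in WT libraries 1 to 4, and fell by 1.75 ± 0.24 on the log2 scale (adjusted p = 0.00462).

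Cfap161, a protein of the doublet lumen, had 4.97, 6.64, 6.80 and 5.07 CPM in heterozygous libraries 1 to 4, against 13.3, 13.0, 11.04 and 11.5 CPM in WT libraries 1 to 4. It fell by 1.06 ± 0.15 on the log2 scale (adjusted p = 0.0061). Tekt4, another tektin, had 3.56, 3.01, 3.30 and 2.54 CPM in heterozygous libraries 1 to 4, against 6.38, 5.96, 8.53 and 8.34 CPM in WT libraries 1 to 4. It fell by 1.23 ± 0.19 on the log2 scale (adjusted p = 0.0108).

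By role, all classes of axoneme gene had negative medians, and the calls were spread unevenly, with no test between classes. Among 12 tektins and other proteins inside the doublet 5 fell, among them Tekt2, Tekt4, Cfap126 and Cfap161 (median -0.53). Of 14 dynein arm subunits 0 passed by edgeR, with 9 at an unadjusted p below 0.05 (against 13.4% of all genes) and a median of -0.57. Dnah9, a heavy chain of the outer arm, was at 2.13 ± 0.399 CPM in heterozygotes and 4.78 ± 1.85 CPM in WT (adjusted p = 0.0879 by edgeR). DESeq2 called Dnah9, Dnah10, Dnaic2 and Wdr78 lower, where 2.16% of all the genes it tested were lower. Of 8 docking and assembly factors 1 fell, Armc4, a docking protein (median -0.54). Of 5 ruler and nexin-dynein regulatory complex genes 1 fell, Drc1 (median -0.50). Of 13 radial spoke and central pair genes 2 fell, Spag6l of the central pair and Cfap206 of the radial spokes (median -0.37). Among the 12 others Ak7 and Dynlrb2, a dynein light chain, fell (median -0.47).

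The genes named beyond the first 4 were singled out after their values were seen. Armc4 was at 22.7 ± 1.22 CPM in heterozygotes and 36.3 ± 4.70 CPM in WT (adjusted p = 0.0116). Drc1 was at 31.3 ± 3.42 CPM in heterozygotes and 47.8 ± 5.50 CPM in WT (adjusted p = 0.022). Tekt2, Ak7, Cfap161, Tekt4 and Armc4 passed in each of the 8 fits that left out 1 library. Cfap126, Drc1, Dynlrb2 and Spag6l passed in 2 of the 8, and Cfap206 in 0 of 8.

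The 3 tested axoneme genes with values above 0 were Spag17, Hydin and Dnah7b, and none passed. Spag17 of the central pair was at 1.31 ± 0.720 CPM in heterozygotes and 1.04 ± 0.338 CPM in WT, and Dnah7b, a heavy chain of the inner arm, at 2.72 ± 0.595 CPM in heterozygotes and 2.58 ± 0.323 CPM in WT. Hydin, also of the central pair, was at 5.001 ± 0.707 CPM in heterozygotes and 4.83 ± 1.90 CPM in WT. Dnah5, also a heavy chain of the outer arm, was at 19.4 ± 3.54 CPM in heterozygotes and 19.7 ± 4.86 CPM in WT. Spag16 of the central pair was at 7.31 ± 1.32 CPM in heterozygotes and 7.34 ± 1.501 CPM in WT, and neither passed.

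The axoneme genes were also split by GTTGCC in their promoter, the letters shown above for Tekt2, Cfap161 and Tekt4. Tested genes with no promoter entry were left out of this split, and 9 of the 11 genes that fell had an entry. Of 24 tested genes with the letters 6 fell, against 1.02% of all genes, with a median log2 fold change of -0.51. Of 29 tested genes without them 3 fell, with a median of -0.45. The difference between these sets was not tested.

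Genes of intraflagellar transport, the BBSome and the transition zone, which RFX factors control in most ciliated cells, differed less. All 73 were tested and 0 passed by edgeR in either direction, with 16 at an unadjusted p below 0.05 (against 13.4% of all genes). DESeq2 called 1 lower, where 2.16% of all the genes it tested were lower. That gene was Pkd1, a polycystin gene that the list holds although it lies outside these groups. DESeq2 also called 1 higher, Traf3ip1, where 154 of the 18203 genes it tested were higher. By limma-voom Pkd1 was called lower, where 199 genes were lower over all genes tested. The median log2 fold change was -0.08, with 51 negative and 22 positive values of 73. In 11 of the 73 all heterozygous libraries lay below all WT libraries, against 4.89% of all genes. In 1 of the 73 they all lay above, against 2.98% of all genes.

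Ift74, the most abundant of the 73, was at 179 ± 5.46 CPM in heterozygotes and 183 ± 4.10 CPM in WT. Arl3, a small GTPase of ciliary cargo release, was at 138 ± 7.53 CPM in heterozygotes and 143 ± 3.17 CPM in WT. Named after their values were seen, Pkd1, the polycystin gene, was at 31.6 ± 6.08 CPM in heterozygotes and 46.3 ± 2.26 CPM in WT (adjusted p = 0.0732). Traf3ip1, the intraflagellar transport gene that DESeq2 called higher, was at 53.2 ± 22.2 CPM in heterozygotes and 24.6 ± 4.13 CPM in WT. Its groups overlapped (adjusted p = 0.0826 by edgeR).

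The sum over the 73 genes was 3364 to 3493 CPM in heterozygotes and 3587 to 3662 CPM in WT, with no overlap. It was 3448 ± 58.3 CPM in heterozygotes and 3620 ± 31.8 CPM in WT, a smaller relative gap than that of the axoneme sum.

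**Figure D5:**
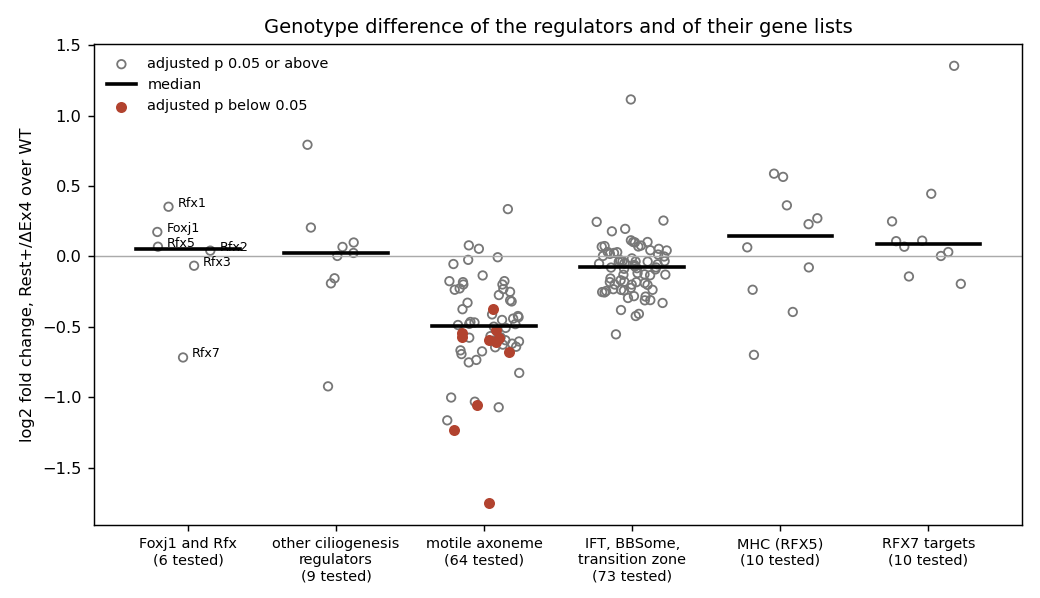
log2 fold change, heterozygotes over WT, of each tested gene (points) in the regulators and in their gene lists, with the median of each list as a line; filled points passed at an adjusted p below 0.05. The motile axoneme genes centre on -0.49, with 61 of 64 below 0, while the genes of intraflagellar transport (IFT), the BBSome and the transition zone centre on -0.08 and the medians of the other groups run from 0.02 to 0.15.

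The genes that RFX5 and RFX7 are known to control were read in the same way. Of 13 MHC genes 10 were tested and 0 passed by edgeR, DESeq2 or limma-voom, with 1 at an unadjusted p below 0.05 by edgeR and a median log2 fold change of 0.15. B2m, the light chain of MHC class I, was at 120.5 ± 12.2 CPM in heterozygotes and 103 ± 6.98 CPM in WT (adjusted p = 0.303). H2-D1, a class I heavy chain, was at 25.01 ± 15.65 CPM in heterozygotes and 19.5 ± 5.46 CPM in WT, a spread carried by heterozygote 4 at 48.4 CPM.

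Of 10 genes reported as RFX7 targets in human cells all were tested, and 0 passed by edgeR or limma-voom, with 2 at an unadjusted p below 0.05 by edgeR, where 13.4% of all genes were. The median log2 fold change was 0.09, with 8 of the 10 values above 0, against 8409 of 16990 over all genes. Rfx7 itself was lower in each heterozygous library but did not pass by edgeR, and a link between it and the list was not tested. Pdcd4, a translation inhibitor, was at 484 ± 77.4 CPM in heterozygotes and 461 ± 35.1 CPM in WT. Klhl24, a ubiquitin ligase adaptor, was at 237 ± 33.8 CPM in heterozygotes and 237 ± 16.2 CPM in WT. Junb, an AP-1 subunit, was at 3.83 ± 1.13 CPM in heterozygotes and 1.502 ± 0.746 CPM in WT. DESeq2 called it higher, as it did 154 of the 18203 genes it tested, while edgeR did not (adjusted p = 0.119).

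Markers of the cells that carry cilia, and of other cells in the dissection, were read beside these lists. Hair cell markers summed to 688 to 844 CPM in heterozygotes and 796 to 915 CPM in WT, with a median log2 fold change of -0.24. Values were negative for 9 of the 12, and 6 had an unadjusted p below 0.05 by edgeR, against 13.4% of all genes. At the adjusted threshold 1 of 12 fell, against 1.02% of all genes. That gene was Otof, the calcium sensor of the hair cell synapse, at 84.2 ± 9.82 CPM in heterozygotes and 167 ± 8.80 CPM in WT (adjusted p = 0.000319). Supporting cell markers summed to 3492 to 4207 CPM in heterozygotes and 3437 to 4375 CPM in WT, and 0 of 11 passed by edgeR, DESeq2 or limma-voom (1 at an unadjusted p below 0.05 by edgeR). The part of the number of hair cells in the axoneme values was not tested.

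Markers of ganglion neurons summed to 370 to 435 CPM in heterozygotes and 562 to 807 CPM in WT, with no overlap, and 2 of 10 fell, against 1.02% of all genes. Of the 10 log2 fold changes 6 were negative and 4 positive. The sum averaged 410 ± 28.7 CPM in heterozygotes and 650 ± 111 CPM in WT, a gap that Nefm, given next, carried in large part. This sum was lower in every heterozygous library, as the axoneme sum was, and its part in the axoneme values was not tested. The 2 genes that fell were the neurofilament genes Nefl and Nefm, with Nefm at 100.4 ± 3.30 CPM in heterozygotes and 254 ± 27.1 CPM in WT (adjusted p = 1.88e-05). Neural progenitor markers had the higher sum in heterozygotes, at 409 to 465 CPM in heterozygotes and 360 to 397 CPM in WT, nearly all of it Fabp7, and 7 of the 10 were too low to test. Rfx4, which neural progenitors express, was near 0 in both genotypes.

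Choroid plexus, ependyma and airway markers, which would mark multiciliated cells from outside the ear, summed to 14.99 to 18.9 CPM in heterozygotes and to 12.4 to 168 CPM in WT. The WT range is set by replicate 4, with 151 CPM of Ttr, the choroid plexus transthyretin, and Scgb1a1 of airways had no read in any library. Without WT replicate 4 the axoneme list had 9 genes lower in heterozygotes and a median of -0.48. Leukocyte markers summed to 149 to 254 CPM in heterozygotes and 167 to 221 CPM in WT. Mesenchyme markers summed to 1992 to 2858 CPM in heterozygotes and 2312 to 2521 CPM in WT. Erythroid markers summed to 531 to 832 CPM in heterozygotes and 513 to 6657 CPM in WT, with WT replicate 4 again the high library.

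The genes most like each regulator across the 8 libraries were found by Pearson's r of log2 CPM over 12600 genes averaging at least 2 CPM. The libraries share genotype and preparation, and with 8 points some of 12600 genes will lie close to any profile, so r is given as a description. Rfx7 was closest to Odf2, which encodes an appendage protein of the ciliary base (r = 0.98), and to Zfp9 (r = 0.97). Foxj1 was closest to Zdhhc2 (r = 0.98) and Pex5 (r = 0.97). Rfx3 was closest to Nudt10 (r = 0.98) and Hdac1 (r = 0.97), and Rfx2 to Rap1gds1 and Gldc (r = 0.98 each). Rfx1 was closest to Htr7 (r = 0.98) and Dnlz (r = 0.97), and Rfx5 to Fblim1 (r = 0.96) and Exoc3l4 (r = 0.94).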

How the data were processed

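RNA was pooled from utricles of 7 to 9 mice per library, and cDNA was made with an oligo-dT primer and template switching, amplified in 12 PCR cycles and sequenced as paired reads of 126 bases, per the labels' protocols. Oligo-dT priming and amplification weight reads toward abundant, intact transcripts. Reads were aligned with STAR 2.5.2a to GRCm38.p4, per the submitters' processing notes, which also name DESeq2. The deposited counts are whole read pairs per gene, and the unstranded column was used. Its lines naming no gene held 25.2% to 33.9% and stayed out of library sizes. A further deposited table gives a signal, the counts divided by 1 size factor per library, for 21369 genes in 7 libraries (WT replicate 4 is absent). Of its values 100% gave back whole reads (tolerance 0.001 reads). The count test was repeated on that table, a choice made after the data were seen, and called 112 genes lower in heterozygotes.

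Symbols, positions and exon lengths came from GENCODE M21 (GRCm38), which held 48349 of the 48823 identifiers, and promoters from RefSeq (GRCm38.p6). Genes passing filterByExpr (minimum count 10, total 15) were tested with edgeR 4.0.16 in R 4.3.3 (TMM factors, quasi-likelihood test) with all 8 libraries and genotype as the factor. Benjamini-Hochberg adjustment ran over all 16990 genes, with a threshold of 0.05. SE is the log2 fold change divided by the square root of F, and 95% intervals are normal approximations from it. The limit set by 0 reads covers counting error only. The fit was tested on simulated data. Alternatives were DESeq2 1.42.0, limma-voom (limma 3.58.1), RLE or no scaling factors, other filters, a replicate block and leaving out each library.

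The members, gene lists and tests were chosen with earlier results of these data known. From each list the text names the 4 passing genes of smallest adjusted p, or, with none passing, the 2 of highest mean CPM, and says where others are named; 1 gene that passed is not reported here. Replicate numbers are shared between genotypes, but no label says that they pair the pools.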

Additional observations from a re-analysis of the deposited data

Results flagged for a closer look

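Within groups of 4 libraries, a library was picked out where its gap to the nearest other, over the whole range of the group, exceeded Dixon's critical value for 4 samples. Of 116 groups examined 10 had such a library, and chance alone gives about 1 in 20 for separate groups. These groups share libraries, and some marker sums hold genes picked out on their own. The count of 10 can therefore not be set against that rate.

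Among the regulators and their partners, Rfx5 stood at 3.47 CPM in heterozygote 1, with the other heterozygous libraries at 2.37 to 2.505 CPM. H2-D1 stood at 48.4 CPM in heterozygote 4, with the others at 16.2 to 18.4 CPM. Rest stood at 132 CPM in heterozygote 1, with the others at 124.6 to 125.8 CPM.

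The cilium gene Ift74 stood at 177 CPM in WT replicate 3, below the other WT libraries at 184.6 to 185.8 CPM. The supporting cell gene Jag1 stood at 1100.5 CPM in WT replicate 1, with the others at 803 to 849 CPM.

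The other 5 were all in WT replicate 4. Ttr stood at 151 CPM there against 1.94 to 3.92 CPM in the other WT libraries, Hbb-bs at 2142 CPM against 153 to 185 CPM, and Hbb-bt at 1889 CPM against 120 to 160 CPM. The choroid plexus and ependyma markers summed to 168 CPM there against 12.4 to 17.7 CPM, and the erythroid markers to 6657 CPM against 512.5 to 619 CPM. No library of the members other than Rfx5 was picked out in this way.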

How the results depend on the processing

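The direction of Rfx1 and Rfx7 held under all 17 alternatives run, while Rfx7 passed only with DESeq2 (-0.70, adjusted p = 0.0109) and without heterozygote 4, its range over fits without 1 library being -0.92 to -0.61. The other 4 tested regulators changed sign under some setting, always far from the threshold: over the fits without 1 library Foxj1 ran from -0.030 to 0.31, Rfx2 from -0.046 to 0.12, Rfx3 from -0.17 to 0.041 and Rfx5 from -0.072 to 0.16. Rfx2 was -0.0046 without TMM factors, and Rfx5 was -0.042 in the authors' 7 libraries and -0.031 in their normalized counts. Rfx4 had 1 to 10 reads per library, which limits its values.

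Genes lower in heterozygotes over all genes tested numbered 173, against 80 with a replicate block, 394 with DESeq2, 112 in the authors' 7 libraries and 105 to 140 without 1 library. Genes higher numbered 25, against 16 with the block, 154 with DESeq2 and 12 to 28 without 1 library. The motile axoneme list had 11 genes lower, against 3 with the block (Ak7, Cfap161 and Tekt2), 25 with DESeq2 and 5 to 9 without 1 library. The lowest, 5, was without WT replicate 1, and it was 6 without heterozygote 2, 3 or 4 or WT replicate 2 or 3. Its median stayed between -0.53 and -0.45, and 0 were higher in each fit. Over its 11 genes, the alternatives kept a value past the threshold 125 times and lost it 51 times. The cause of these differences was not tested, and fewer samples enter the fits without 1 library. The correlation of deviations from the group means between libraries of the same number ran from -0.10 to 0.03. Such values show no strong shared deviation, but they cannot tell whether replicate numbers pair the pools.

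The primary cilium list had 1 gene lower without TMM factors, with limma-voom and with DESeq2, 1 higher with no low count filter and with DESeq2, and 0 to 1 in each direction without 1 library. Its median was -0.12 without TMM factors, which moved the median of all genes to -0.05, -0.057 with no filter and -0.086 to -0.056 without 1 library. The RFX7 target list had 1 gene higher with DESeq2 and in the authors' 7 libraries and 0 to 1 without 1 library. The median of the Rfx partners was -0.017 with no filter, -0.028 with DESeq2 and -0.077 to 0.063 without 1 library.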

Other observations

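The letters TTCAGCACC, an arm of the REST element RE1, were searched on both strands of the same 250 bases before and 50 after the start. They were in the promoter of 0 of the 6 regulators with a promoter entry and in 117 of 27025 genes (0.433%). RE1 elements also lie outside promoters, which were not searched.

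Among the regulators, Pearson's r of log2 CPM over the 8 libraries was lowest for Rfx1 and Rfx7, at -0.80, and highest for Foxj1 and Rfx1, at 0.64. The libraries share genotype, by which Rfx1 and Rfx7 were also separated, so these values describe the same 8 points and not a separate relation.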
